A study of Mus musculus with 6 samples.

Results

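A set of 46 genes with roles in mitosis and the mitotic spindle was followed in H3K27ac ChIP-seq of low pigment (LP) and high pigment (HP) B16 cells, out of 21951 protein-coding genes in the annotation. The genes were chosen by name, as cyclins and kinases of mitotic entry, chromosomal passenger, kinetochore, checkpoint, spindle motor, cytokinesis and condensin genes. B16 F10 is a mouse melanoma line, and the labels name no engineered allele and no added agent. They had been plated at 100 cells per cm2, so that pigment built up as the cultures grew, and were taken on day 5. LP and HP cells came from the same culture and were separated by side scatter in a flow cytometer, with 2 replicates of each. Libraries of unsorted cells made with IgG, 1 per replicate number, served the authors as controls. Nothing in the labels states that the replicates came from separate cultures, so the p-values cover the spread between these libraries, which may be technical. A library averages over a sorted population, so a smaller share of cells with the mark and less of the mark per cell cannot be told apart.

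H3K27ac is acetylation of lysine at the tail of histone H3 and marks active promoters and enhancers. Genes of mitosis are transcribed mostly in G2 and M phase, and many of their promoters share 2 short elements. One is the CCAAT box, bound by the factor NF-Y. The other is the cell cycle genes homology region (CHR), where the DREAM complex keeps the gene off in resting cells and where B-MYB and FOXM1, with the MuvB core, switch it on late in the cycle. A promoter can keep H3K27ac between divisions, so the mark at these genes does not by itself count dividing cells.

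The promoter sequences of 8 of the genes are given to show these elements. The windows run from 180 bases before to 30 bases past the RefSeq start (build GRCm38, which is mm10) and read 5′ to 3′ on the strand of the gene. Capitals mark a CCAAT box, a CHR (TTTGAA or the variant TTCGAA) or an E2F site on either strand, so ATTGG is a CCAAT box and TTCAAA a CHR read from the opposite strand. Cdk1, the kinase of mitotic entry (chr10:69352883-69353092, minus strand), Ccnb1, its cyclin B1 partner (chr13:100786457-100786666, minus strand), and Plk1, a kinase of spindle assembly (chr7:122159255-122159464, plus strand), are shown as regulators. Aurka, a centrosome and spindle kinase (chr2:172370541-172370750, minus strand), and Ncapd2, a subunit of condensin I (chr6:125191557-125191766, minus strand), had the highest ratios of HP to LP, and Racgap1, a cytokinesis gene (chr15:99651627-99651836, minus strand), had the lowest. In HP replicate 2 the value of Ncapd2 came from a peak outside the printed stretch (chr6:125163902-125168444), beyond the 3′ end of the gene. With start sites of protein-coding transcripts only, its log2 difference between HP and LP was 1.40, below the 1.50 of Cenpf. Top2a, the topoisomerase that unlinks sister chromatids (chr11:99024160-99024369, minus strand), and Mki67, the gene of the Ki-67 antigen (chr7:135716350-135716559, minus strand), are common markers of dividing cells.
Cdk1: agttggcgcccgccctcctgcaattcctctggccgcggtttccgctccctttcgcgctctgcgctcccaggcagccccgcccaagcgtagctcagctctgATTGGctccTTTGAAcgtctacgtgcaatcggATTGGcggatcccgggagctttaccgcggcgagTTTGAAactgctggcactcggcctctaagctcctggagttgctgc
Ccnb1: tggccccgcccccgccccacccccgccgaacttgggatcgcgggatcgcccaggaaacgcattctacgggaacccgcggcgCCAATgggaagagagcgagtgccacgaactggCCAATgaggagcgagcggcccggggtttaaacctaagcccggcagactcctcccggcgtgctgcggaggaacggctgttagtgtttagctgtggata
Plk1: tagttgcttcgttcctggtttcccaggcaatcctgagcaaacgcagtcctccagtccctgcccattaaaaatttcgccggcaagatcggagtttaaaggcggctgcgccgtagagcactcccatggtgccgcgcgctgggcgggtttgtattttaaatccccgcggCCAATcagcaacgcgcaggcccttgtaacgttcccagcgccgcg
Aurka: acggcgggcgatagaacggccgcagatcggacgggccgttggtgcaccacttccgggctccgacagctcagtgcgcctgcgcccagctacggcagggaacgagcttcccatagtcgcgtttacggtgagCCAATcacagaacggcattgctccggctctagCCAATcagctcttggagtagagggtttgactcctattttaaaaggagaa
Top2a: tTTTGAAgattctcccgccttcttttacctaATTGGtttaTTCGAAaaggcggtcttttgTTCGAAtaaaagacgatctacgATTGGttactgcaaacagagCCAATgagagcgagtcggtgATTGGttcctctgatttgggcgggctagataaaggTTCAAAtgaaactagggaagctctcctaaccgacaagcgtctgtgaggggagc
Mki67: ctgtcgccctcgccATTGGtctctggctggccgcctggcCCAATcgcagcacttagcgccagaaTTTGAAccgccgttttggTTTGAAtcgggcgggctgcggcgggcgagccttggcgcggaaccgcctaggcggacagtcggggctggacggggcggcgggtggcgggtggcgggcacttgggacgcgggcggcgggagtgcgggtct
Ncapd2: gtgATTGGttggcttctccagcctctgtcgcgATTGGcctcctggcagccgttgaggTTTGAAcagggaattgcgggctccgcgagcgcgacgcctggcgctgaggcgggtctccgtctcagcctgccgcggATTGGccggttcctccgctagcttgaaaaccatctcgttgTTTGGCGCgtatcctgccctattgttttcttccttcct
Racgap1: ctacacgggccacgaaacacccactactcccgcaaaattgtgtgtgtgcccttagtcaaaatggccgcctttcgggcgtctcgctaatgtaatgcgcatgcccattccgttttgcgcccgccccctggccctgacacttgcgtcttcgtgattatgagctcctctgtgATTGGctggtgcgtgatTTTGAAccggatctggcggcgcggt
In these windows Top2a held 4 CCAAT boxes, 2 matches to TTTGAA and 2 to TTCGAA. Cdk1 and Mki67 held 2 of each of the CCAAT box and TTTGAA. Racgap1 had 1 CCAAT box followed by 1 TTTGAA just past the start, and Ncapd2 had 3 CCAAT boxes, 1 TTTGAA and 1 E2F site. Ccnb1 had 2 CCAAT boxes and no CHR of these letters. The CHR of Plk1 and that of Aurka began 30 and 32 bases past the start, outside the printed stretch.

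Over the full windows of 300 bases, from 250 before to 50 past the start, 28 of 35 of the mitosis and spindle genes with a RefSeq window and a promoter peak in all 4 libraries had a CCAAT box on either strand (80.0%), against 37.4% of the 8230 promoters of that kind. A CHR of either form was found in 28 of the 35 (80.0%), against 12.5%. Both elements were present in 26 of 35 (74.3%), against 5.25%. The CHR nearest to the start lay within 50 bases of it in 25 of the 28 (89.3%), against 26.3% of the promoters with a CHR, and its median position was 4.5 bases past the start. The median GC content of the windows was 59.7% in the mitosis and spindle genes and 62.7% over all promoters, and its part in the shares was not tested. The E2F site, counted as TTTCCCGC or as TTTGGCGC, and the E-box, counted as CACGTG or as CATGTG and bound by MITF among others, were found in 5.71% and 17.1% of the genes, against 3.43% and 17.3%. DNA replication genes, which peak earlier in the cycle, had the E2F site in 34.4% and a CHR in 15.6% of 32 windows. They had a CCAAT box in 65.6%, so a high share of that box was not particular to the mitosis and spindle genes. Other mitosis genes, listed below, had a CCAAT box in 31 of 52 windows (59.6%), a CHR in 26 and both in 17 (32.7%). Pigmentation genes had an E-box in 61.5%, a CCAAT box in 38.5% and a CHR in 15.4% of 13 windows. These matches are of letters in a window and do not show that a factor is bound. The windows overlapped the highest H3K27ac peak of the gene in all 4 libraries in 22 of the 35 genes (62.9%), against 65.5% of all promoters.

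**Figure D1:**
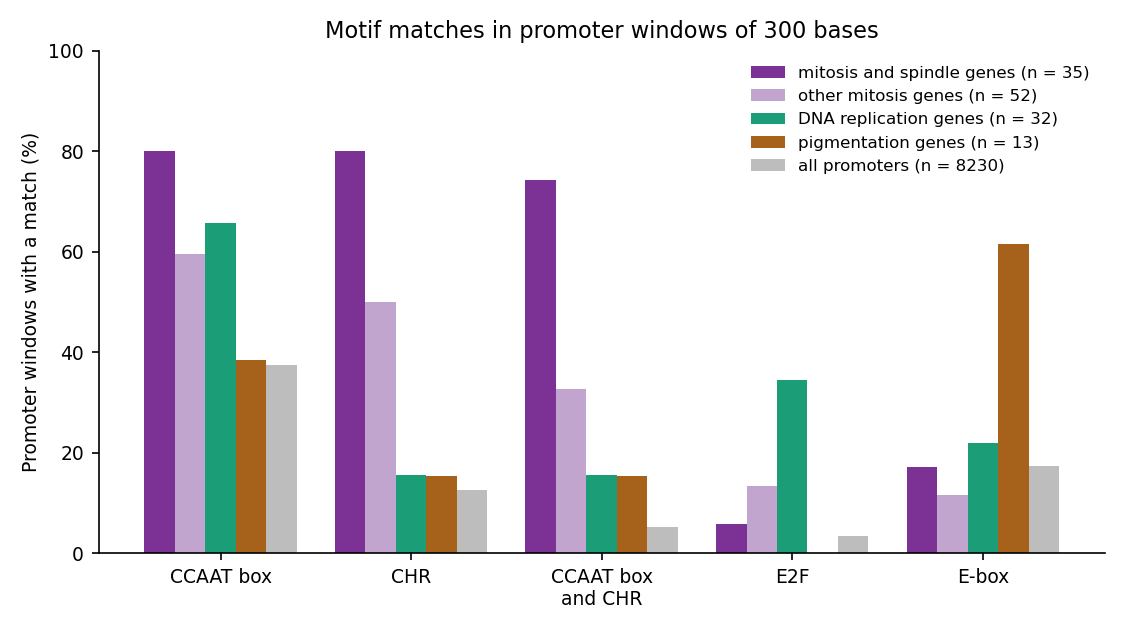
Share of promoter windows of 300 bases with a match to each element (y axis, percent) in 5 gene sets, with the number of windows in the key; CHR counts both forms and bars start at 0. The CHR was found in 80.0% of the mitosis and spindle genes and 12.5% of all promoters, whereas the E-box share was 17.1% and 17.3%.

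The libraries held 11467942 and 15353176 fragments for LP and 11483830 and 14254904 for HP, and the authors called 57942 to 71529 peaks in each. For each gene, the highest summit among the peaks that overlapped the 3 kb on either side of any of its transcription start sites was taken, and the number of fragments over it (the pileup) was expressed per 1000000 fragments of its library (scaled pileup). No spike-in was described, so a shift of a whole library cannot be told apart from its scaling. As a check of the cell type, 8 of 9 melanocyte markers had a promoter peak in all 4 libraries, and Slc45a2 lacked one only in LP replicate 1. Their scaled pileups ran from 0.521 (Tyrp1, LP replicate 2) to 9.33 (Pmel, HP replicate 2). Tyr had 0.872 and 0.847 for LP and 2.09 and 1.40 for HP. By level these markers thus overlapped with some markers of other cells, given next. Among 14 markers of immune, epithelial, endothelial, fibroblast, muscle, blood and liver cells, 1 (Pecam1, scaled pileup 1.13 to 2.39) had a peak in all 4 libraries and 6 had none in any. Of the other 7, 3 had a peak in 3 libraries. These were Cd68, a macrophage marker (0.698 in LP replicate 1, none in LP replicate 2, 2.09 and 3.37 in the HP replicates), and Col1a1 and Pdgfra of fibroblasts (0.456 to 1.57). The part of other cells in the results was not tested. HP replicate 2 stood above the other libraries. In it the median pileup at the promoters of the mitosis and spindle genes was 142 fragments, against 45 in HP replicate 1 and 31 and 49 in LP. The median fold enrichment given by the authors at these summits was 42.8 in HP replicate 2 and 11.0 to 15.5 in the other 3 libraries.

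The promoters of the mitosis and spindle genes were acetylated in both populations. In all 4 libraries, 43 of the 46 genes had a promoter peak (93.5%), against 47.3% of all protein-coding genes. By library, 43 and 45 of the genes had a peak in LP and all 46 in both HP replicates. Of all 21951 protein-coding genes, 11747 and 13515 had one in LP replicates 1 and 2, and 12705 and 13131 in HP replicates 1 and 2. The level was ordinary among marked promoters, since the median gene stood at the 45.2 percentile of the 10391 promoters with a peak in all 4 libraries. Scaled pileups of the genes with a peak ran from 0.698 to 13.1 in LP replicate 1, from 0.912 to 7.49 in LP replicate 2, from 1.04 to 11.4 in HP replicate 1 and from 1.68 to 18.8 in HP replicate 2. Of the 172 highest summits of the 43 genes, 170 lay within 1 kb of a start site, and the peaks of the 4 libraries overlapped one another in 40 genes. The exceptions were Plk1, Espl1 and Ncapd2, described below with their positions.

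The 3 genes without a peak in every library lacked it in LP. Kif2c, a kinesin that takes apart microtubules at centromeres, had scaled pileups of 1.39 and 2.24 in HP replicates 1 and 2, from 16 and 32 fragments, and no peak in either LP library. Its HP peaks lay at a start site of the GENCODE annotation (chr4:117182299-117183000 in HP replicate 1). The RefSeq window of Kif2c overlapped its highest peak in 0 libraries. Bub1b, which encodes the checkpoint kinase BubR1, had 1.89 in LP replicate 2 and 2.18 and 4.91 in HP. Cdc25c, a phosphatase that activates Cdk1, had 0.912 in LP replicate 2 and 1.04 and 1.68 in HP. Both were without a peak in LP replicate 1. The smallest scaled pileup of any peak called in LP was 0.436 and 0.391 in replicates 1 and 2, so a missing peak means a signal that the caller did not separate from background at this depth. When the peaks at these promoters were merged over libraries, they formed 143 regions, of which 45 were found in all 4 libraries (31.5%), against 24.2% of the 38803 regions merged in the same way at all protein-coding genes. In both HP replicates only there were 8 (5.59%, against 5.01%), and in both LP replicates only 0 (against 0.175%). In LP replicate 1 only there were 8 (5.59%, against 9.45%) and in LP replicate 2 only 19 (13.3%, against 16.3%). In HP replicate 1 only there were 21 (14.7%, against 12.9%) and in HP replicate 2 only 30 (21.0%, against 20.6%). Counted by gene, over all protein-coding genes, 302 had a promoter peak in both HP and neither LP library, and 160 had the opposite.

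In each of the 43 genes the mean log2 scaled pileup was higher in HP than in LP, and the same was true of most promoters. The median difference between HP and LP was 0.90 on the log2 scale for the mitosis and spindle genes, with a range from 0.35 (Racgap1) to 1.66 (Ncapd2), and 0.90 for all 10391 promoters, of which 10319 were above 0. The genes thus stood 0.0023 from the median of all promoters. By limma with Benjamini-Hochberg adjustment over all promoters, 0 of the 43 genes passed the threshold of 0.05, against 0.770% of all promoters (80 higher in HP and 1 lower). The lowest adjusted p by limma was 0.0843, for Ncapd2. At an unadjusted p under 0.05, 14 of the 43 were higher in HP, against 30.9% of all promoters, and 0 were lower. With the replicate number as a block, 27 promoters were higher and 0 of the 43 genes passed. The standard error of a log2 difference was 0.55 for every gene, because limma estimated 1 pooled variance. The differences depended on the libraries used. The median difference of the genes was 1.57 without HP replicate 1 and 0.22 without HP replicate 2, against 1.24 and 0.57 for all promoters. It was 0.79 without LP replicate 1 and 1.06 without LP replicate 2, against 0.95 and 0.85. Leaving out a library leaves 1 in its population, so counts of passing genes in these settings carry no conclusion. They are listed only where the dependence on the processing is described.

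Whether the HP values stood clear of the LP values was counted next. Both HP values were above both LP values in 21 of the 43 genes (48.8%), against 73.8% of all promoters, and in 0 were they below. With 2 libraries against 2, the smallest two-sided p of an exact permutation test for a gene is 0.333, so this count carries no test. When each library was centred on the median of all promoters, both HP values were above both LP values in 6 genes, against 10.8% of all promoters, and below in 6, against 16.2%. The 6 above were Aurka, Ttk, Bub1, Cenpf, Smc2 and Ncapd2. The 6 below were Ccna2, Ccnb2, Incenp, Ect2, Racgap1 and Smc4. Centring moved the median difference of all promoters to -0.079 and that of the 43 genes to -0.077. With it, 25 of the 43 were below 0, and by their median so were most of all promoters.

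**Figure D2:**
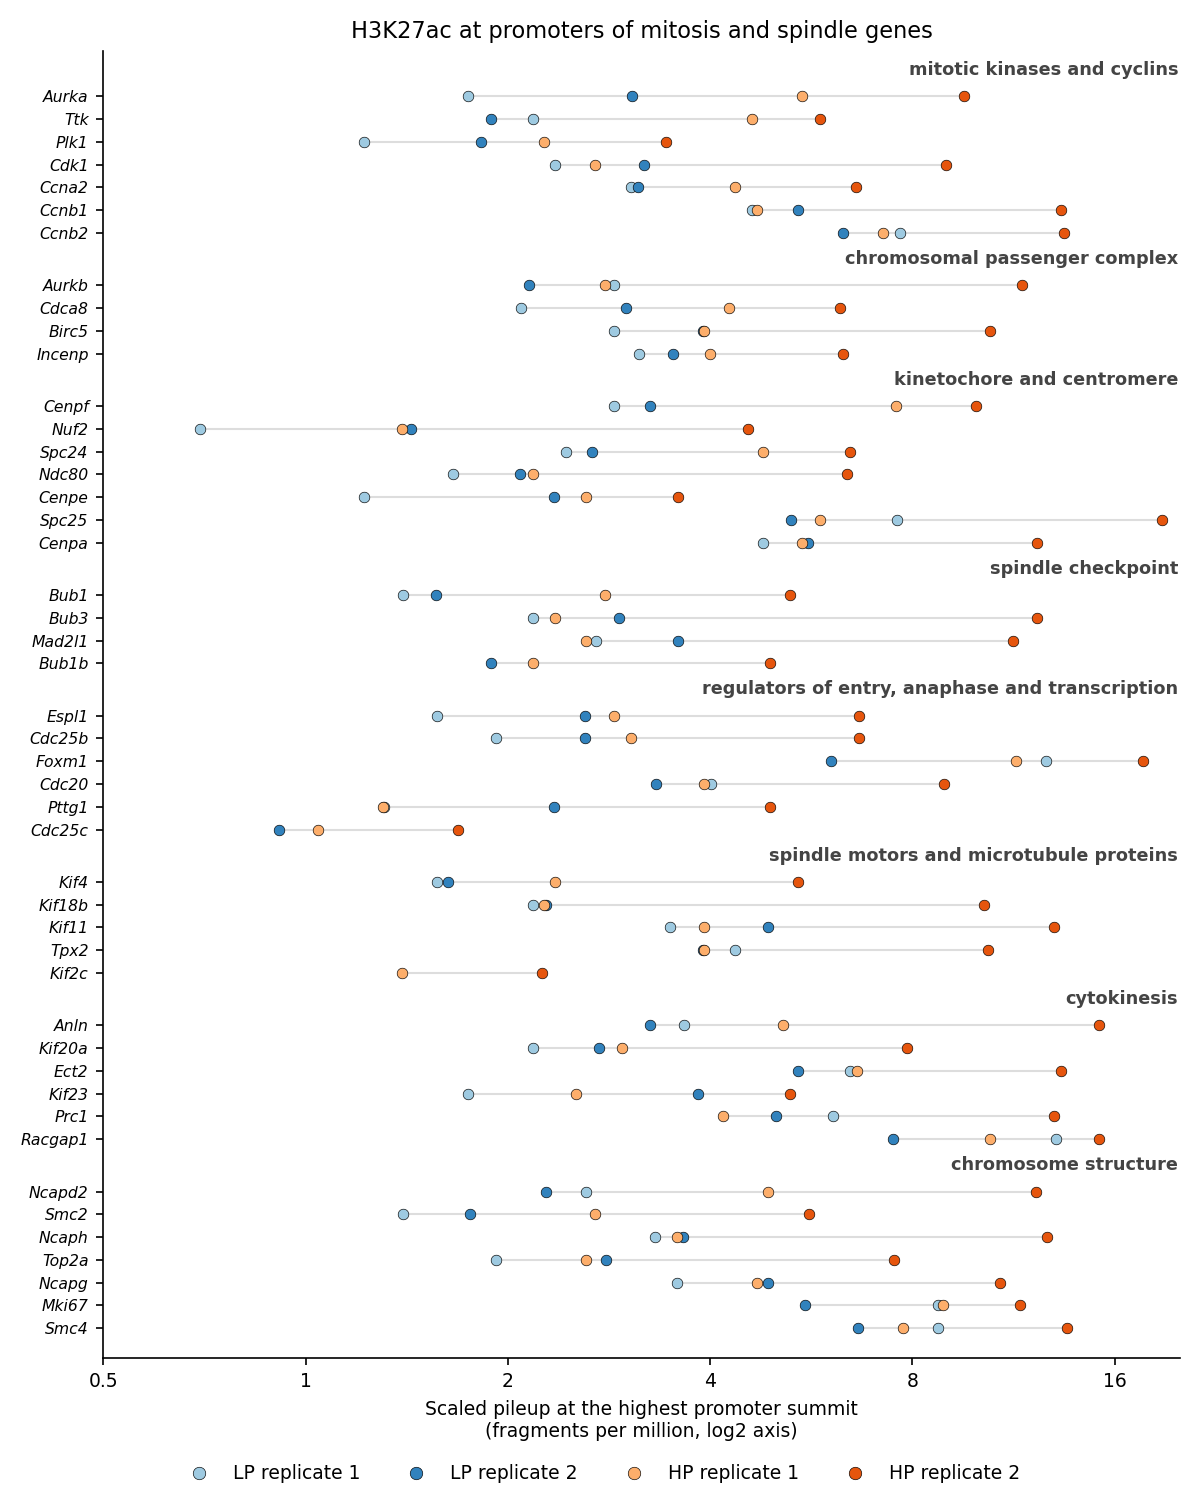
Scaled pileup (x axis, fragments per 1000000 on a log2 axis) at the highest promoter summit of the 46 genes in the 4 libraries, grouped by role and ordered within a role by the difference between HP and LP; each point is 1 library, the grey line joins the lowest and the highest, and a missing point means no peak. HP replicate 2 is the rightmost point for every gene, while HP replicate 1 falls among or below the LP points in 22 of the 43 genes with 4 points.

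Among the mitotic kinases and cyclins the median difference was 0.84, and 7 of 7 genes had a peak in all 4 libraries. Cdk1 had scaled pileups of 2.35 and 3.19 for LP and 2.70 and 8.98 for HP. Its HP replicate 1 lay between the LP replicates, and the difference was 0.84 on the log2 scale. Ccnb1 had 4.62 and 5.41 for LP and 4.70 and 13.3 for HP, a difference of 0.66 with overlapping groups. Plk1, with the second lowest level of the 43, had 1.22 and 1.82 for LP and 2.26 and 3.44 for HP. Its HP values were above both LP values (0.90), but its highest HP summits lay at -398 and -401 bp from the start site and the LP summits at 140 and 57 bp, so the values are not of 1 peak. Aurka had 1.74 and 3.06 for LP and 5.49 and 9.54 for HP, and the groups did not overlap. Its difference of 1.65 had an adjusted p of 0.0861 by limma. The highest peak of Aurka also lay at least in part within 3 kb of a start site of Cstf1. That is a gene of mRNA 3′ end processing that is read in the opposite direction, so the signal cannot be assigned to either gene. Differences were 1.35 for Ttk, the checkpoint kinase Mps1, 0.79 for Ccna2, which encodes cyclin A2, and 0.50 for Ccnb2, which encodes cyclin B2.

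The chromosomal passenger complex corrects attachments of microtubules to kinetochores and guides cytokinesis. Its 4 genes had a median difference of 0.99. Aurkb, its kinase, had scaled pileups of 2.88 and 2.15 for LP and 2.79 and 11.6 for HP, so HP replicate 1 lay within the LP range and the difference was 1.20. Birc5, which encodes survivin, had 2.88 and 3.91 for LP and 3.92 and 10.5 for HP, a difference of 0.93 in which HP replicate 1 stood level with the higher LP value. Differences were 1.04 for Cdca8 (borealin) and 0.60 for Incenp, the scaffold of the complex, and in both genes the HP values were above the LP values.

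The kinetochore and centromere genes connect chromosomes to microtubules, and their median difference was 1.00 over 7 genes. Cenpf, a large kinetochore and nuclear matrix protein, had scaled pileups of 2.88 and 3.26 for LP and 7.58 and 9.96 for HP. The groups were well apart, with a difference of 1.50 on the log2 scale and an adjusted p of 0.104 by limma. Nuf2, a subunit of the Ndc80 complex, had the lowest level of the 43, with 0.698 and 1.43 for LP and 1.39 and 4.56 for HP, from 8, 22, 16 and 65 fragments. Its difference of 1.33 therefore rested on few fragments, and HP replicate 1 lay within the LP range. The other subunits of that complex differed by 1.00 (Ndc80), 1.12 (Spc24) and 0.73 (Spc25). Cenpe, a kinesin at the kinetochore, differed by 0.85, and Cenpa, the centromeric form of histone H3, by 0.66.

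The spindle checkpoint holds anaphase until all chromosomes are attached. Over the 3 of its 4 genes with a peak in all 4 libraries the median difference was 1.09, and the values were 1.37 for Bub1, 1.09 for Bub3 and 0.80 for Mad2l1. HP replicate 1 was below both LP values for Mad2l1 and between them for Bub3.

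The regulators of mitotic entry, anaphase and transcription had a median difference of 0.70 over 5 genes. Foxm1, the transcription factor that acts at the CHR, had scaled pileups of 12.6 and 6.06 for LP and 11.4 and 17.6 for HP. It was among the 2 genes of highest level, its LP replicates were 2-fold apart, and its difference was 0.70 with HP replicate 1 inside the LP range. Its peak also lay at least in part within 3 kb of a start site of Rhno1, a gene of the DNA damage response. Cdc20, an activator of the anaphase-promoting complex, had 4.01 and 3.32 for LP and 3.92 and 8.91 for HP (0.69), again with overlap. Cdc25b, a phosphatase of mitotic entry, differed by 1.01, and Pttg1, which encodes securin, by 0.53. Espl1, the separase that cuts cohesin, differed by 1.11, but its highest summit in HP replicate 1 lay 3639 bp from a start site, beyond the 3′ end of the gene. With a window of 1 kb its difference was 0.91.

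Spindle motors and microtubule proteins had a median difference of 0.95 over 4 genes. Kif11, the motor that pushes spindle poles apart, had scaled pileups of 3.49 and 4.88 for LP and 3.92 and 13.0 for HP. Its HP replicate 1 lay between the LP replicates, and the difference was 0.79. Kif18b, a kinesin that shortens astral microtubules, differed by 1.11, Kif4, a chromosome-bound kinesin, by 1.16, and Tpx2, which activates Aurora A on the spindle, by 0.63. Only Kif4 in this group had both HP values above both LP values.

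The cytokinesis genes had the lowest median difference of the 8 roles, 0.58 over 6 genes, and the highest median level percentile, 66.3. Racgap1, a GTPase activator of the central spindle, had scaled pileups of 13.1 and 7.49 for LP and 10.4 and 15.2 for HP. The groups overlapped, and its difference of 0.35 was the lowest of the 43. Prc1, which bundles microtubules of the midzone, had 6.10 and 5.02 for LP and 4.18 and 13.0 for HP (0.41), with HP replicate 1 below both LP values. Ect2, the exchange factor that activates RhoA, differed by 0.67, Kif23, the motor partner of Racgap1, by 0.49, Kif20a, a kinesin of the midzone, by 0.98, and Anln, which encodes anillin, by 1.35.

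Genes of chromosome structure had a median difference of 0.93 over 7 genes. Mki67 had scaled pileups of 8.72 and 5.54 for LP and 8.88 and 11.6 for HP. The HP values were above both LP values, HP replicate 1 by a small margin, and the difference was 0.55. Top2a had 1.92 and 2.80 for LP and 2.61 and 7.51 for HP, a difference of 0.93 with HP replicate 1 between the LP replicates. The 5 condensin genes differed by 0.43 (Smc4), 0.77 (Ncapg), 0.95 (Ncaph), 1.31 (Smc2) and 1.66 (Ncapd2). Smc4 had 8.72 and 6.64 for LP and 7.75 and 13.6 for HP, so its groups overlapped. Its peak also lay at least in part within 3 kb of a start site of Ift80, a gene of cilia. Ncapd2 had 2.62 and 2.28 for LP and 4.88 and 12.2 for HP. The groups did not overlap, but the highest HP replicate 2 summit lay 4098 bp past a start site and beyond the 3′ end of the gene, where the start of a transcript not annotated as protein-coding brings that peak into the window. With start sites of protein-coding transcripts only, the difference of Ncapd2 was 1.40 and its adjusted p by limma 0.116. With start sites of any transcript, its difference was 0.68 after centring each library on the median of all promoters. It was 2.32 without HP replicate 1 and 1.00 without HP replicate 2. The highest peaks of 4 further genes lay at least in part within 3 kb of a start site of another protein-coding gene. These were Cdca8 (9930104L06Rik), Kif20a (Brd8), Kif4 (Pdzd11) and Cdc25b (Spef1).

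The 2 replicate sets differed at these genes, and HP replicate 2 stood above the other libraries at each of them. In set 1 the median of HP minus LP was 0.39 on the log2 scale for the mitosis and spindle genes and 0.51 for all promoters, and 11 of the 43 genes were below 0 (25.6%, against 19.4% of all promoters). In set 2 the medians were 1.42 and 1.31, and 0 of the genes were below 0. HP replicate 2 had the highest value of the 4 libraries in 43 of 43 genes, against 87.8% of all promoters. It exceeded HP replicate 1 more than 2-fold in 28 genes (65.1%), against 31.6%, and the median difference between the HP replicates was 1.20 for the genes and 0.71 for all promoters. HP replicate 1 lay within the LP range in 19 genes and below both LP values in 3, together 51.2%, against 25.4% of all promoters. In LP, replicate 2 was above replicate 1 in 29 genes (67.4%), against 42.6%. Set against the median of all promoters in the same library, the median of the genes was at -0.26 and 0.00 in LP and at -0.32 and 0.28 in HP, so it was higher in the second replicate of each population.

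**Figure D3:**
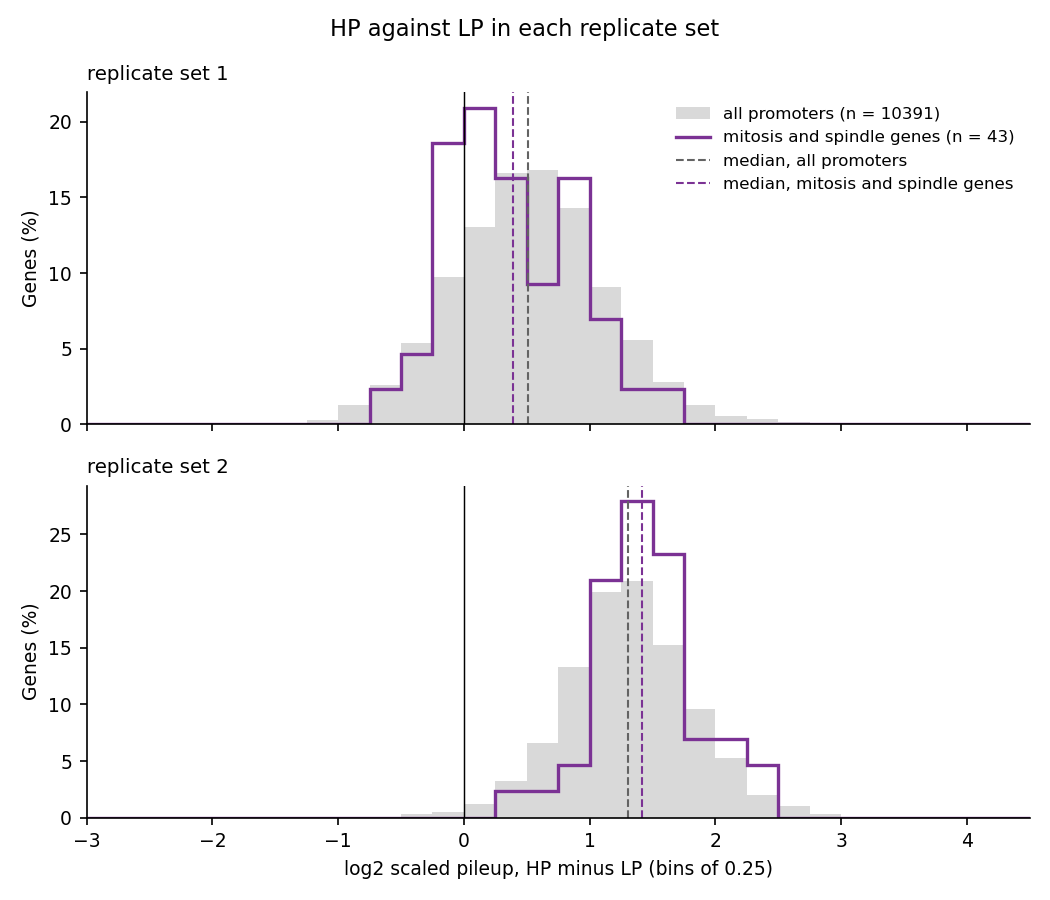
Distribution of the log2 scaled pileup of HP minus LP (x axis, bins of 0.25, values beyond the axis in the end bins) as the percentage of genes (y axis), for all promoters (grey) and the mitosis and spindle genes (purple line), in replicate set 1 (top) and set 2 (bottom); dashed lines are medians. The median of the genes is below that of all promoters in set 1 (0.39 and 0.51) and above it in set 2 (1.42 and 1.31).

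In replicate set 1, but not over all promoters in set 2, the difference between HP and LP fell with the level of the promoter. All promoters were split into 4 bins of equal size by their mean scaled pileup over the 4 libraries, which includes the values compared. In set 1 the median of HP minus LP was 0.75, 0.69, 0.52 and 0.16 from the lowest to the highest bin over all promoters, and 0.92, 0.51, 0.17 and -0.15 for the 8, 17, 11 and 7 mitosis and spindle genes in them. In set 2 the medians over all promoters were 1.29, 1.36, 1.31 and 1.28 and those of the genes were 1.64, 1.49, 1.41 and 1.09. The 7 genes of the highest bin thus held the lowest median in both sets. The bins hold few of the genes, and no test was made between them.

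**Figure D4:**
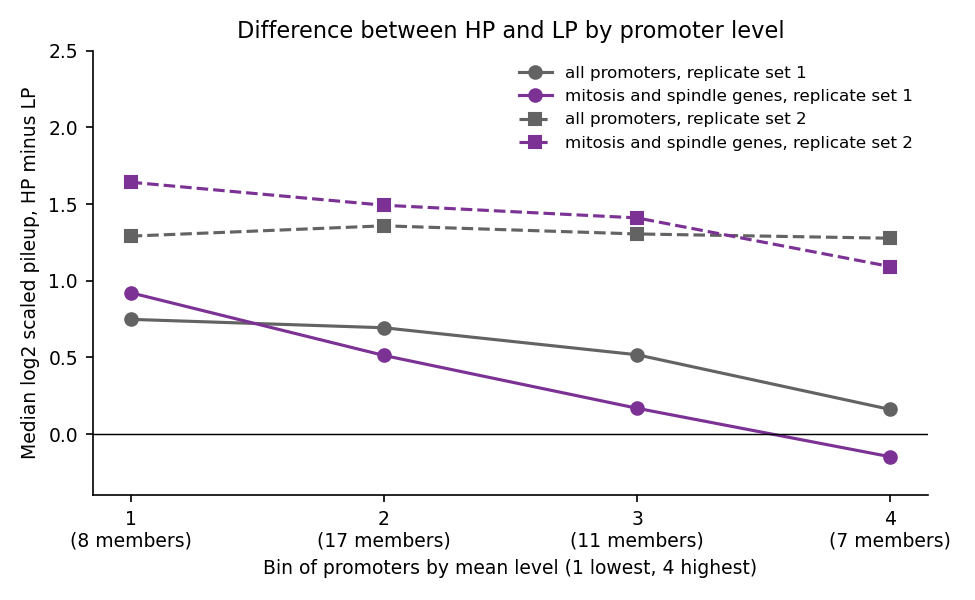
Median log2 scaled pileup of HP minus LP (y axis) in 4 bins of promoters by mean level (x axis, with the number of mitosis and spindle genes in each), for replicate set 1 (circles, solid lines) and set 2 (squares, dashed lines). In set 1 the median falls from 0.75 to 0.16 over all promoters and from 0.92 to -0.15 in the genes, and in set 2 it stays between 1.28 and 1.36 over all promoters and falls from 1.64 to 1.09 in the genes.

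The breadth of the acetylated stretch was compared as well. The peaks in the promoter windows of the 43 genes covered a median of 684 and 1086 bp for LP and 1244 and 1766 bp for HP, and those of all promoters 820 and 1254 bp for LP and 1406 and 1876 bp for HP. More bases were covered in HP than in LP in both replicate sets in 33 of the 43 genes, against 79.4% of all promoters. A peak of higher pileup is called over more bases, and the part of this in the widths was not tested.

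The values were then set beside the promoter elements. The 26 genes with a CCAAT box and a CHR had a median difference between HP and LP of 0.92 on the log2 scale and the 9 without both had 0.93, and both HP values were above both LP values in 13 and 4 of them. Their medians of the mean scaled pileup were 2.56 and 3.11 for LP and 5.64 and 5.43 for HP.

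Other genes of the cell cycle were set beside them. A list of 67 other mitosis genes, with further kinetochore and spindle genes, subunits of the anaphase-promoting complex, cohesin, and the DREAM and MuvB subunits, had a peak in all 4 libraries in 62. Their median difference was 0.85, both HP values were above both LP values in 37 (59.7%), and 22 were below 0 in set 1 (35.5%). Of 43 DNA replication genes 41 had a peak in all 4 libraries, with a median difference of 0.94, HP above LP in 30 (73.2%) and 4 below 0 in set 1 (9.76%). Among 20 pigmentation genes 18 had a peak in all 4 libraries, with a median difference of 1.02, HP above LP in 13 (72.2%) and 4 below 0 in set 1 (22.2%, against 19.4% of all promoters). By limma, 0 genes of each list passed the adjusted threshold, against 0.770% of all promoters higher in HP. At an unadjusted p under 0.05 by limma, 17 of 62, 10 of 41 and 8 of 18 were higher in HP, against 30.9% of all promoters. In each list 0 were lower. These lists share the libraries with the mitosis and spindle genes, and no difference between lists was tested.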

How the data were processed

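H3K27ac ChIP-seq of LP and HP B16 cells, 2 replicates each, was analysed. Per the labels and the paper, the authors made FASTQ files with bcl2fastq 2.20, trimmed reads with Trimmomatic 0.33 and fastp, aligned them to mm10 with Bowtie2 2.5.1 and ran MACS 3.0.0b1 on each library, with duplicates kept, a q-value of at most 0.05 and the like-numbered IgG library as control. The deposited signal is the pileup at the summit, a whole number of fragments with no scaling. The deposited fold enrichment, a ratio of pileup plus 1 to local background plus 1, and the deposited −log10 p-values and q-values were used only to describe or filter peaks. The labels give 1% formaldehyde for 10 minutes, and the paper gives another strength.

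Genes and start sites came from GENCODE for GRCm38, and promoter sequences from RefSeq (GRCm38), where 37 of the 46 genes matched. A peak counted for a gene if at least 1 bp lay within 3 kb of a start site of any transcript. The highest summit pileup per 1000000 fragments was taken without a pseudocount. For the 10391 protein-coding genes with a peak in all 4 lists, log2 values were compared by limma 3.58.1 in R 4.3.3, with no block. Mean fragment lengths ran from 167 to 217 bp, and the peaks had medians of 7, 11, 10 and 12 fragments, which limits the precision of low promoters. Replicate numbers pair the libraries, since the populations were sorted from the same culture and each set used equal amounts of DNA and its own IgG library. Over promoters, replicate 2 minus replicate 1 of LP had a correlation of 0.0450 with that of HP. The block was an alternative, as were centring, scaling by fragment length, other windows, start sites, q-values and summaries, and leaving out libraries. Every one of the 46 genes is named. Values per library are given for 10 genes fixed by role, the 3 highest and 3 lowest differences, the 2 highest and 2 lowest levels, and genes without a peak in a list. The genes, lists and tests were chosen with earlier results of these data known. Read counts and DiffBind were left out, as alignments were not used here. Python 3.11.15, pandas 2.3.3, numpy 2.4.6 and matplotlib 3.10.9 were used.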

Additional observations from a re-analysis of the deposited data

How the results depend on the processing

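The median difference of the 43 genes stayed between 0.88 and 0.92 with a block, all gene types, protein-coding transcripts only, a 1 kb window, 50% of the peak inside the window, a q-value of at most 0.001 or scaling by fragments times fragment length, and 0 of the genes passed the adjusted threshold in any of these. The number of all promoters higher in HP moved from 80 to 27 with the replicate block, 25 with the length scaling, 9 with the 1 kb window, 7 at the stricter q-value, 0 with the mean of the summit pileups (1533 at an unadjusted p under 0.05) and 4 with centring. The replicate block changed no call of the 43 genes. With the mean of the summit pileups the median of the genes was 0.52, which stood at -0.19 from that of all promoters, and the differences of Racgap1, Foxm1, Cdk1, Spc25, Kif11 and Kif23 turned to -0.57, -0.24, -0.23, -0.19, -0.032 and -0.0099, in that order. Centring each library takes the shared shift out by construction. With it the median of the genes was -0.077, against -0.079 for all promoters, so most promoters were below 0 as well. Both HP values were above both LP values in 6 genes, against 10.8% of all promoters. The 25 differences of the genes below 0 were -0.63 (Racgap1), -0.57 (Prc1), -0.55 (Smc4), -0.49 (Kif23), -0.48 (Ccnb2), -0.45 (Pttg1), -0.43 (Mki67), -0.38 (Incenp), -0.35 (Tpx2), -0.32 (Cenpa), -0.32 (Ccnb1), -0.31 (Ect2), -0.28 (Cdc20), -0.28 (Foxm1), -0.25 (Spc25), -0.21 (Ncapg), -0.19 (Kif11), -0.18 (Ccna2), -0.18 (Mad2l1), -0.13 (Cdk1), -0.13 (Cenpe), -0.077 (Plk1), -0.047 (Birc5), -0.045 (Top2a) and -0.026 (Ncaph). Without a library or a replicate set, the median of the genes ranged from 0.22 to 1.57, its distance from all promoters from -0.34 to 0.33, the genes whose every remaining HP value was above every remaining LP value from 21 to 45 (a rule that fewer libraries make easier to meet), the genes passing from 0 to 33 and all promoters passing from 3 to 5693. Those ranges were -0.046 to 2.44 for Aurkb, -0.10 to 2.28 for Bub3, -0.088 to 1.41 for Ccnb1, -0.086 to 1.09 for Ccnb2, -0.034 to 1.42 for Cdc20, -0.022 to 1.71 for Cdk1, -0.15 to 1.54 for Foxm1, -0.075 to 1.65 for Kif11, -0.076 to 1.06 for Kif23, -0.25 to 1.86 for Mad2l1, -0.55 to 1.37 for Prc1, -0.42 to 1.49 for Pttg1, -0.32 to 1.02 for Racgap1, -0.17 to 1.03 for Smc4, -0.38 to 1.83 for Spc25 and -0.15 to 1.41 for Tpx2, the genes that fell below 0 in at least 1 such setting. Other causes of these moves were not tested. The highest counts of passing genes and promoters, out of 43 and 10501, came from the setting without HP replicate 1. There HP replicate 2 alone stood for HP. With 1 library left in a population, the counts of passing genes and promoters carry no conclusion. Depth limits the genes of low pileup, such as Nuf2 with 8 fragments in LP replicate 1.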

Other observations

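Peaks inside the gene bodies, away from the promoter windows, were counted at the mitosis and spindle genes, with no count over other genes and no allowance for gene length. There were 13 and 27 such peaks in the LP replicates, at 9 and 19 of the 46 genes, and 15 and 35 in the HP replicates, at 10 and 19 genes. Only Kif11 and Anln, named after their values were seen, had one in every library. Anln had 2 and 4 of them in the LP and 2 and 8 in the HP replicates, and Kif11 had 1 in every library but HP replicate 1, which had 4. The count followed the replicate number more than the population. Replicate 2 also had more fragments, with 15353176 against 11467942 in LP and 14254904 against 11483830 in HP. Its IgG control held 19358733 fragments, against 8701778 for replicate 1. The part of depth in the count was not tested.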
